A study of Mus musculus with 9 samples.

Results

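The expression of 10 genes that mark or drive the epithelial-mesenchymal transition (EMT) was examined in mouse epiblast-like cells (EpiLCs). These were the transcription factor genes Snai1, Snai2, Zeb1, Zeb2 and Twist1, the epithelial genes Cdh1, Epcam and Esrp1, and the mesenchymal genes Cdh2 and Vim. They were taken by gene symbol from a count table of 23453 genes and all 10 were found there. The table holds bulk RNA-seq of 3 cell states with 3 libraries each, 9 in all. EpiLCs, which model the epiblast of the embryo shortly after implantation, were obtained from naive embryonic stem cells by 48 h of culture with FGF2 and Activin A in N2B27 with 1% KSR. The other states were derived from EpiLCs by a further 24 h of culture. aEpiLCs, the model of anterior epiblast, received neither Activin A nor CHIR99021 (their medium is labelled as N2B27 basal, whereas the methods of the study add 1% KSR). pEpiLCs, the model of posterior epiblast and primitive streak, received 20 ng/ml Activin A with 3 µM CHIR99021, an inhibitor of GSK3 that activates Wnt/β-catenin signalling. The methods list FGF2 for neither of these media, so every comparison with EpiLCs also includes its withdrawal. The cells are called wild-type. The methods of the study list E14TG2a embryonic stem cells among its materials but do not repeat the line for these libraries, and do not say whether the libraries of a state came from separate cultures, so p-values measure only the spread between these libraries, which may be technical.

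EMT is the process by which cells of an epithelium release their junctions and become motile. In the gastrulating embryo it takes place in the primitive streak, where epiblast cells ingress to form mesoderm and definitive endoderm. SNAI1 and its paralogue SNAI2, the zinc-finger homeobox factors ZEB1 and ZEB2 and the basic helix-loop-helix factor TWIST1 are the classical drivers of EMT, and the SNAI and ZEB proteins repress transcription through E-boxes with the core CACCTG. A switch from E-cadherin (Cdh1) to N-cadherin (Cdh2) is the textbook sign of the process.

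The letters of that E-box were searched for in the promoters of the members, from 250 bases before to 50 bases after the start of the gene (RefSeq, GRCm38.p6). Windows were found for 5 of the 10 members, Snai1, Zeb2 (4 windows), Twist1, Epcam and Vim, whereas Snai2, Zeb1, Cdh1, Esrp1 and Cdh2 had no entry. CACCTG, read on either strand so that CAGGTG counts too, occurred in the windows of 2 members, Snai1 and Epcam. Of all 32851 windows, 6640 (20.2%) held it. These 2 windows are shown, with the E-box in capitals, because Snai1 is the member that was called higher in pEpiLCs than in aEpiLCs and Epcam is a gene of the epithelial state. The Snai1 window, chr2:167537945-167538244 on the plus strand, held CACCTG once, 126 bases before the start. The Epcam window, chr17:87635729-87636028 on the plus strand, held CACCTG 187 bases and CAGGTG 19 bases before the start. A match of letters is a description of the sequence and not evidence of binding.
Snai1: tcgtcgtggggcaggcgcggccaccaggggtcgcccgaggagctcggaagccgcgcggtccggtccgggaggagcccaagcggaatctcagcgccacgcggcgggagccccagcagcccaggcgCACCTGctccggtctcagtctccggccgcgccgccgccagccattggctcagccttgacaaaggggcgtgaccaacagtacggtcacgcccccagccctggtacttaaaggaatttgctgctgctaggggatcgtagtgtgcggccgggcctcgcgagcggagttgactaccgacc
Epcam: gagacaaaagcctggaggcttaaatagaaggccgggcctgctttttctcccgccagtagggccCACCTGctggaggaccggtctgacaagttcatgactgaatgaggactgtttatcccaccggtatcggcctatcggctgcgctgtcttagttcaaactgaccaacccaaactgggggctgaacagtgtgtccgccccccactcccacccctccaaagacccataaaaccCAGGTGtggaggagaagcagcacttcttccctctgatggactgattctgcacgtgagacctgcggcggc

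Library totals were between 20560564 and 23417917 counts, and 15797 genes passed a filter on low counts. Levels are given in CPM (counts scaled to a common library size) after TMM normalization over the 9 libraries, and 3 counts, taken as the detection limit, correspond to 0.130 to 0.143 CPM. The library pEpiLC replicate 1 stood apart. It was at least 2-fold above both other pEpiLC libraries for 3.82% of genes and at least 2-fold below both for 4.67%, whereas the other 8 libraries deviated from their group in this way for 0.563% to 1.03% and 1.11% to 1.66% of genes. Of the 10 members, 5 were at least 2-fold above both other libraries in pEpiLC replicate 1 (Snai1, Snai2, Zeb1, Cdh2 and Vim), and in no other library was any member. All 8 markers of nascent mesoderm exceeded 3 counts in at least 1 pEpiLC library, as did 6 in EpiLCs and 4 in aEpiLCs. Their summed level was 354 CPM in pEpiLC replicate 1. It was 4.04 and 4.60 CPM in pEpiLC replicates 2 and 3 and 1.67 to 3.39 CPM in EpiLCs and aEpiLCs. Most of the sum in pEpiLC replicate 1 was Lhx1, which also marks the anterior streak and definitive endoderm, at 209 CPM compared with 1.26 and 1.33 CPM. Mesp1, which marks mesoderm leaving the streak, was at 71.2 CPM compared with 0 and 0.0920 CPM. The summed level of 6 epiblast markers was 1804 CPM in pEpiLC replicate 1, 3065 and 2770 CPM in the other pEpiLC libraries and 4124 to 4794 CPM in the other states. Sums were lower for 6 measured markers of fibroblasts (16.2 to 34.0 CPM over the 9 libraries) and 5 of extraembryonic endoderm (4.83 to 10.2 CPM), both highest in pEpiLC replicate 1. For 6 measured markers of neural crest the range was 15.6 to 55.6 CPM, the sum was lowest in pEpiLCs, and Foxd3 alone made up 32.9 to 47.4 CPM in EpiLCs and aEpiLCs. The part of these cell types in the results was not tested, and log2 fold changes of the members that involve pEpiLCs are given in the text or the plot of fold changes with and without pEpiLC replicate 1. In bulk RNA, fewer cells of a type and less RNA per cell cannot be told apart.

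**Figure D1:**
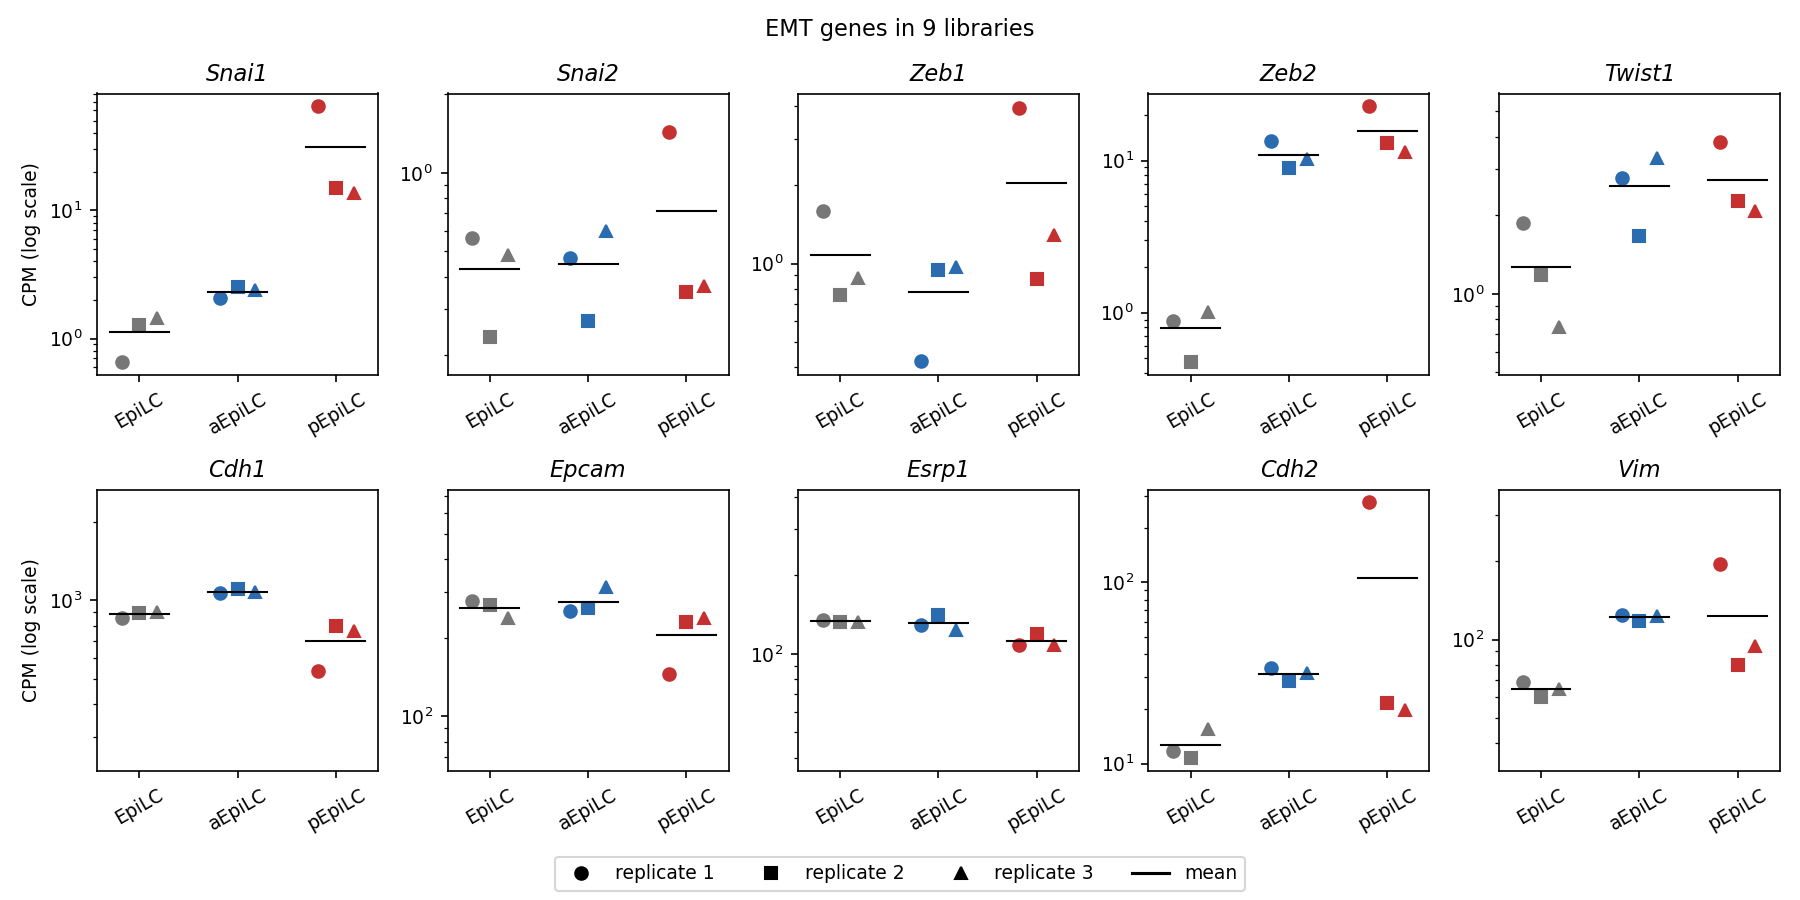
Levels of the 10 EMT genes (CPM, log scale, 1 panel per gene) in EpiLCs, aEpiLCs and pEpiLCs, with a point per library, the shape giving the replicate number, and a line at the mean of 3 libraries. pEpiLC replicate 1 (red circle) lies apart from the other pEpiLC libraries for Cdh2 (275 CPM compared with 21.5 and 19.8 CPM), while all pEpiLC libraries are above all others for Snai1.

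Snai1 was upregulated in pEpiLCs. The gene (ENSMUSG00000042821.7, chr2:167538195-167542814, plus strand, GRCm38, as for all positions here) measured 0.653, 1.27 and 1.45 CPM in EpiLC replicates 1 to 3, 2.07, 2.52 and 2.39 CPM in aEpiLCs, and 64.6, 14.9 and 13.7 CPM in pEpiLCs. Every pEpiLC library was thus above every library of the other states, and pEpiLC replicate 1 was 4.52-fold above the mean of the other pEpiLC libraries (14.3 CPM). Snai1 was called as changed in all 3 comparisons, where a call needs an adjusted p (edgeR's quasi-likelihood test, Benjamini-Hochberg) below 0.05 and a log2 fold change of 1 or more in size. Compared with aEpiLCs, the log2 fold change was 3.74 ± 0.656 (SE, adjusted p = 0.0105) with all libraries and 2.62 ± 0.156 (adjusted p = 3.81e-07) without pEpiLC replicate 1. This call was lost when aEpiLC replicate 1, 2 or 3 was left out, with log2 fold changes of 3.66, 3.80 and 3.75 and adjusted p-values of 0.0556, 0.0596 and 0.0577. Compared with EpiLCs, the log2 fold change was 4.80 ± 0.741 (adjusted p = 0.00217) and 3.68 (adjusted p = 4.09e-09) without pEpiLC replicate 1, and the call held under all 15 alternative settings. The smaller rise from EpiLCs to aEpiLCs, a log2 fold change of 1.04 ± 0.298 (adjusted p = 0.0114), was close to the limit on fold change. It was below it without aEpiLC replicate 2 (0.98) or EpiLC replicate 1 (0.77), and missed the limit on adjusted p in a fit of all 9 libraries (adjusted p = 0.267).

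Zeb2 was upregulated in both derived states. The gene (ENSMUSG00000026872.17, chr2:44983632-45117395, minus strand) measured 0.887, 0.472 and 1.01 CPM in EpiLCs, 13.3, 8.96 and 10.2 CPM in aEpiLCs, and 22.7, 13.0 and 11.3 CPM in pEpiLCs. The EpiLC libraries were below all others, whereas the aEpiLC and pEpiLC libraries overlapped. The log2 fold change from EpiLCs was 3.76 ± 0.248 in aEpiLCs (edgeR, adjusted p = 9.00e-08) and 4.32 ± 0.376 in pEpiLCs (adjusted p = 0.000230), or 3.96 without pEpiLC replicate 1 (adjusted p = 3.06e-09), and both calls held under all 15 alternative settings. Between pEpiLCs and aEpiLCs the log2 fold change was 0.53 ± 0.280 (adjusted p = 0.239), and 0.18 without pEpiLC replicate 1. With replicate number as a block it was 0.49 ± 0.153 (edgeR, adjusted p = 0.0834). Exons of Zeb2 share 653 bp with Zeb2os, an antisense gene on the opposite strand. As the sources used here do not say whether the libraries were stranded, reads from this stretch cannot be assigned, but Zeb2os itself was listed at 0 counts in the EpiLC libraries and at 3 to 13 counts in the others.

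Twist1 was low in all states. The gene (ENSMUSG00000035799.6, chr12:33957671-33959829, plus strand) measured 1.87, 1.18 and 0.748 CPM in EpiLCs, 2.77, 1.67 and 3.31 CPM in aEpiLCs, and 3.82, 2.26 and 2.07 CPM in pEpiLCs. The pEpiLC libraries were above the EpiLC libraries and the aEpiLC libraries overlapped with both. It was called higher in pEpiLCs than in EpiLCs (edgeR, log2 fold change 1.12 ± 0.393, adjusted p = 0.0498) and in aEpiLCs than in EpiLCs (1.03 ± 0.343, adjusted p = 0.0244). Both calls lay at the limits. The first was lost under 8 of 15 alternative settings, among them leaving out any pEpiLC library (adjusted p = 0.0607, 0.0674 and 0.0534 without replicates 1, 2 and 3) or EpiLC replicate 2 or 3 (0.143 and 0.151). The second was lost under 6, among them leaving out aEpiLC replicate 1 or 3 (adjusted p = 0.0607 and 0.0939) or EpiLC replicate 2 or 3 (0.0796 and 0.104). Between pEpiLCs and aEpiLCs the log2 fold change was 0.07 (adjusted p = 0.913), or -0.25 without pEpiLC replicate 1.

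Snai2 and Zeb1 were detected at low counts, and neither was called in any comparison. Snai2 (ENSMUSG00000022676.7, chr16:14705852-14709385, plus strand) had 5 to 13 counts in the EpiLC and aEpiLC libraries, 30 counts in pEpiLC replicate 1 and 8 counts in each of the other pEpiLC libraries. This corresponds to 0.560, 0.236 and 0.484 CPM in EpiLCs, 0.470, 0.270 and 0.598 CPM in aEpiLCs, and 1.43, 0.348 and 0.368 CPM in pEpiLCs. Its log2 fold change between pEpiLCs and aEpiLCs was 0.67 ± 0.641 (edgeR, adjusted p = 0.527), and -0.30 without pEpiLC replicate 1. Zeb1 measured 1.59, 0.755 and 0.880 CPM in EpiLCs, 0.423, 0.946 and 0.966 CPM in aEpiLCs, and 3.96, 0.870 and 1.29 CPM in pEpiLCs, so that the single high library was again pEpiLC replicate 1. Its log2 fold change between pEpiLCs and aEpiLCs was 1.38 ± 0.618 (edgeR, adjusted p = 0.177), and 0.47 (adjusted p = 0.496) without that library. Exons of Zeb1 share 198 bp with Gm10125 on the opposite strand.

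Among the epithelial genes, Cdh1 (ENSMUSG00000000303.12, chr8:106603351-106670246, plus strand), which encodes E-cadherin, the adhesion molecule of epithelial adherens junctions, measured 854, 897 and 904 CPM in EpiLCs, 1067, 1104 and 1073 CPM in aEpiLCs, and 535, 797 and 765 CPM in pEpiLCs. The states did not overlap, every aEpiLC library being above every EpiLC library and these above every pEpiLC library. The differences were nevertheless smaller than the limit on fold change, so Cdh1 was called in no comparison. The log2 fold change between pEpiLCs and aEpiLCs was -0.63 ± 0.139 (edgeR, adjusted p = 0.0231), or -0.46 (adjusted p = 0.000365) without pEpiLC replicate 1. Its adjusted p missed 0.05 without any of the aEpiLC libraries (0.0764, 0.0924 and 0.0839 without replicates 1, 2 and 3, edgeR). Between aEpiLCs and EpiLCs it was 0.29 ± 0.0537 (adjusted p = 0.000624). Between pEpiLCs and EpiLCs it was -0.32 (adjusted p = 0.0951), and -0.15 (adjusted p = 0.0106) without pEpiLC replicate 1.

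Epcam (ENSMUSG00000045394.9, chr17:87635979-87651129, plus strand), which encodes an epithelial cell adhesion molecule and whose promoter window is printed above, measured 277, 268 and 237 CPM in EpiLCs, 253, 259 and 314 CPM in aEpiLCs, and 145, 230 and 238 CPM in pEpiLCs. The pEpiLC libraries were below the aEpiLC libraries but overlapped with EpiLCs. No comparison reached the limit on adjusted p, the log2 fold change between pEpiLCs and aEpiLCs being -0.43 (edgeR, adjusted p = 0.156), or -0.23 (adjusted p = 0.102) without pEpiLC replicate 1. Esrp1 (ENSMUSG00000040728.15, chr4:11331933-11386783, minus strand), a regulator of epithelial splicing, varied least of the 10 genes. It measured 134, 132 and 132 CPM in EpiLCs, 128, 140 and 124 CPM in aEpiLCs, and 108, 119 and 108 CPM in pEpiLCs, and the pEpiLC libraries were below all others. The log2 fold change was -0.23 ± 0.0574 compared with EpiLCs (edgeR, adjusted p = 0.0147) and -0.23 compared with aEpiLCs (adjusted p = 0.0791, but 0.0488 with the replicate block, 0.0286 in the fit of all 9 libraries and 0.0455 with limma voom), both far below the limit on fold change. The adjusted p compared with EpiLCs missed 0.05 without pEpiLC replicate 3 (0.0564) or EpiLC replicate 1 or 3 (0.0543 and 0.0519). Exons of Esrp1 share 127 bp with Gm26663 on the opposite strand.

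Of the mesenchymal genes, Cdh2, which encodes N-cadherin, measured 11.8, 10.7 and 15.5 CPM in EpiLCs, 33.5, 28.7 and 31.5 CPM in aEpiLCs, and 275, 21.5 and 19.8 CPM in pEpiLCs. pEpiLC replicate 1 was thus 13.3-fold above the mean of the other pEpiLC libraries, which themselves lay between the EpiLC and the aEpiLC libraries. The rise from EpiLCs to aEpiLCs was called (edgeR, log2 fold change 1.30 ± 0.127, adjusted p = 2.85e-06), but not in a fit of all 9 libraries (adjusted p = 0.263). Cdh2 was also called higher in pEpiLCs than in EpiLCs (3.08 ± 1.02, adjusted p = 0.0415). Without pEpiLC replicate 1 the log2 fold change was 0.73 (adjusted p = 0.000459), below the limit on fold change, and without EpiLC replicate 1, 2 or 3 the adjusted p was 0.126, 0.132 and 0.109. Between pEpiLCs and aEpiLCs the direction depended on the same library. The log2 fold change was 1.76 ± 0.946 (adjusted p = 0.251) with it and -0.59 ± 0.102 (adjusted p = 0.00157) without it. With all libraries and replicate number as a block it was 0.61 ± 0.771 (edgeR, adjusted p = 0.63). The library with 275 CPM of Cdh2 is the one with 354 CPM of summed nascent mesoderm markers, whose part in the result was not tested.

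Vim (ENSMUSG00000026728.9, chr2:13573927-13582826, plus strand) encodes vimentin, the intermediate filament protein of mesenchymal cells. It measured 68.7, 60.3 and 64.6 CPM in EpiLCs, 125, 118 and 123 CPM in aEpiLCs, and 195, 79.8 and 94.8 CPM in pEpiLCs. Both derived states were above EpiLCs in every library, and pEpiLC replicates 2 and 3 were below every aEpiLC library while replicate 1 was above them all. The log2 fold change from EpiLCs was 0.92 ± 0.0653 in aEpiLCs (edgeR, adjusted p = 1.63e-07) and 0.96 ± 0.306 in pEpiLCs (adjusted p = 0.0366), or 0.46 (adjusted p = 0.000195) without pEpiLC replicate 1. The adjusted p in pEpiLCs missed 0.05 without EpiLC replicate 1, 2 or 3 (0.0909, 0.118 and 0.105). With all libraries, neither of these log2 fold changes reached the limit of 1, but Vim was called in pEpiLCs without pEpiLC replicate 2 (edgeR, 1.19, adjusted p = 0.0141) or 3 (1.12, adjusted p = 0.0338). Between pEpiLCs and aEpiLCs it was 0.02 (adjusted p = 0.973) with that library and -0.47 (adjusted p = 0.00175) without it.

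**Figure D2:**
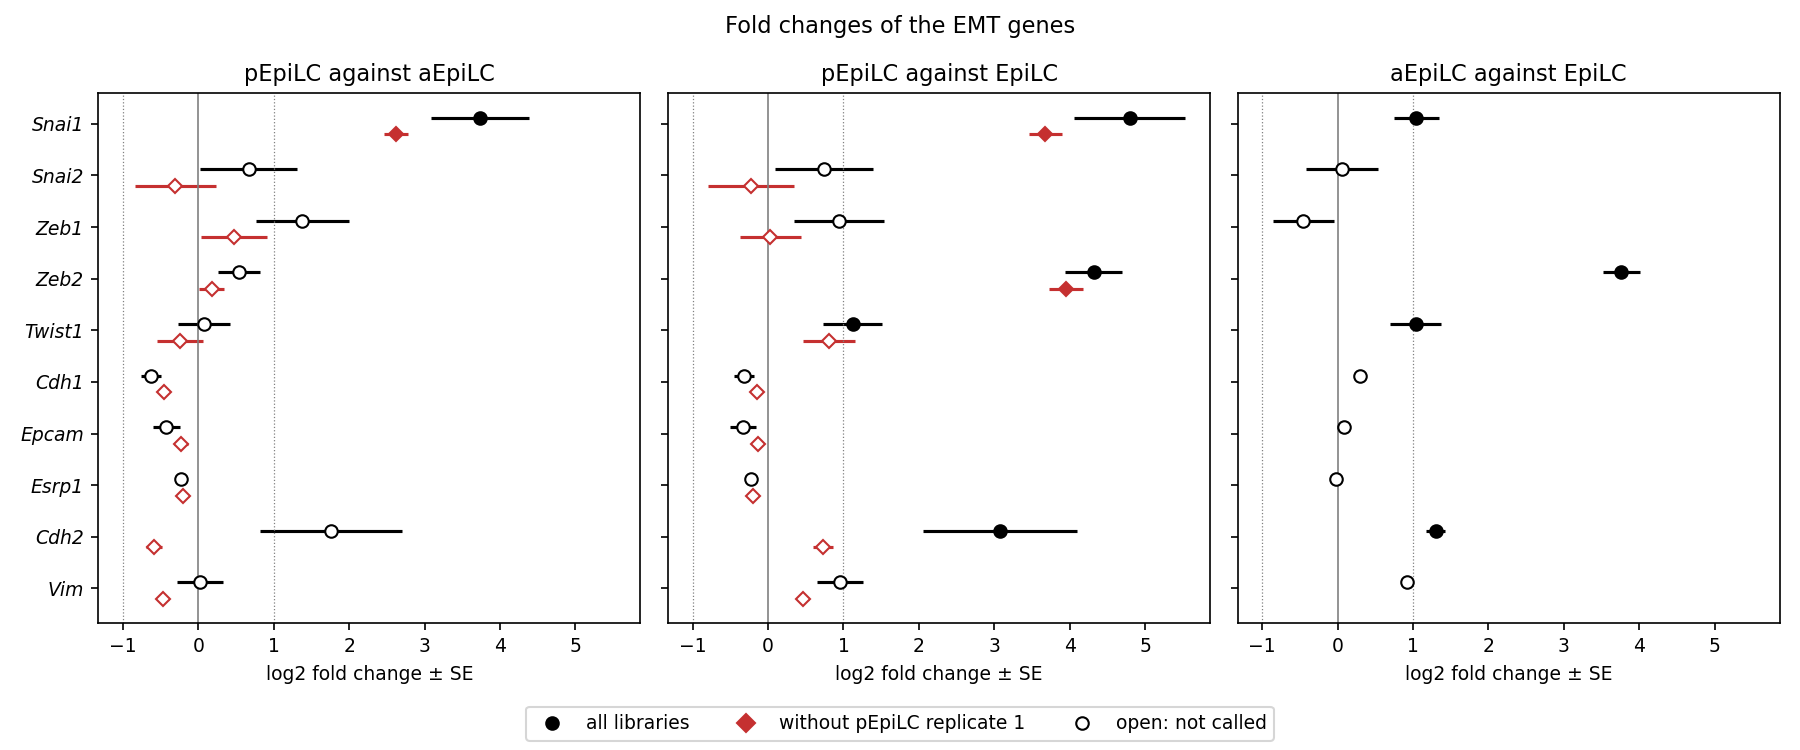
Log2 fold changes of the 10 genes ± SE from edgeR in the 3 comparisons, with all libraries (black circles) and, where pEpiLCs take part, without pEpiLC replicate 1 (red diamonds). Filled symbols are called, and dotted lines mark the limit on fold change of 1. Between pEpiLCs and aEpiLCs only Snai1 is called under either choice, and Cdh2 changes from 1.76 to -0.59.

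Counted together, 1 of the 10 genes was called higher in pEpiLCs than in aEpiLCs (Snai1) and the other 9 were not called, where 7.29% of the 15198 genes tested were called, 2.55% higher and 4.74% lower. At an adjusted p below 0.05 with no limit on fold change, 2 members passed, Snai1 higher and Cdh1 lower, where 15.6% of all genes did, 6.28% higher and 9.30% lower. Without any of the aEpiLC libraries 0 passed. Without pEpiLC replicate 1 it was Snai1 higher and 3 lower (Cdh1, Cdh2 and Vim), and with the replicate block, with limma voom and in the fit of all 9 libraries Snai1 higher and 2 lower (Cdh1 and Esrp1). Compared with EpiLCs, 4 members were called higher in pEpiLCs (Snai1, Zeb2, Twist1 and Cdh2) and the other 6 were not called, where 15.8% of genes were called, 7.71% higher and 8.13% lower. Without pEpiLC replicate 1 it was 2, Snai1 and Zeb2. Between aEpiLCs and EpiLCs the 4 members called higher were again Snai1, Zeb2, Twist1 and Cdh2, where 12.5% of genes were called, 7.25% higher and 5.24% lower. In a fit of all 9 libraries, 1 of these was called. With no limit on fold change, 5 members passed higher and 1 (Esrp1) lower between pEpiLCs and EpiLCs, where 44.2% of all genes passed, 22.8% higher and 21.4% lower. Between aEpiLCs and EpiLCs 6 passed higher, where 46.6% did, 24.0% higher and 22.6% lower. Without EpiLC replicates 1, 2 and 3, the members that passed higher between pEpiLCs and EpiLCs were 3, 2 and 2, and those that passed lower 0, 1 and 0. Between aEpiLCs and EpiLCs it was 5 to 6 higher when a library was left out, but 2 in the fit of all 9 libraries. The comparisons share libraries and are not independent. The libraries of pEpiLCs and aEpiLCs did not overlap for 4 members (Snai1 higher, Cdh1, Epcam and Esrp1 lower), where 38.7% of genes did not. For pEpiLCs and EpiLCs it was 7 members, where 58.7% of genes did not overlap, and for aEpiLCs and EpiLCs 5, where 56.3% did not.

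The balance of the cadherins was compared within each library. In CPM with 1 added, log2 Cdh2 minus log2 Cdh1 was -6.06, -6.26 and -5.77 in EpiLCs, -4.95, -5.22 and -5.05 in aEpiLCs, and -0.96, -5.15 and -5.20 in pEpiLCs. Cdh1 thus exceeded Cdh2 in every library. The balance was shifted towards Cdh2 by 0.96 in aEpiLCs compared with EpiLCs (exact permutation test, two-sided, p = 0.1, the smallest that 3 libraries against 3 allow). The shift from EpiLCs to pEpiLCs was 2.26 (exact p = 0.1), or 0.86 without pEpiLC replicate 1. pEpiLCs differed from aEpiLCs by 1.30 (exact p = 0.8), or by -0.10 without pEpiLC replicate 1. Per kilobase of exon, Cdh1 was 103- to 148-fold above Cdh2 in EpiLCs, 56.2- to 67.9-fold in aEpiLCs, 65.5- and 68.1-fold in pEpiLC replicates 2 and 3, and 3.42-fold in pEpiLC replicate 1.

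**Figure D3:**
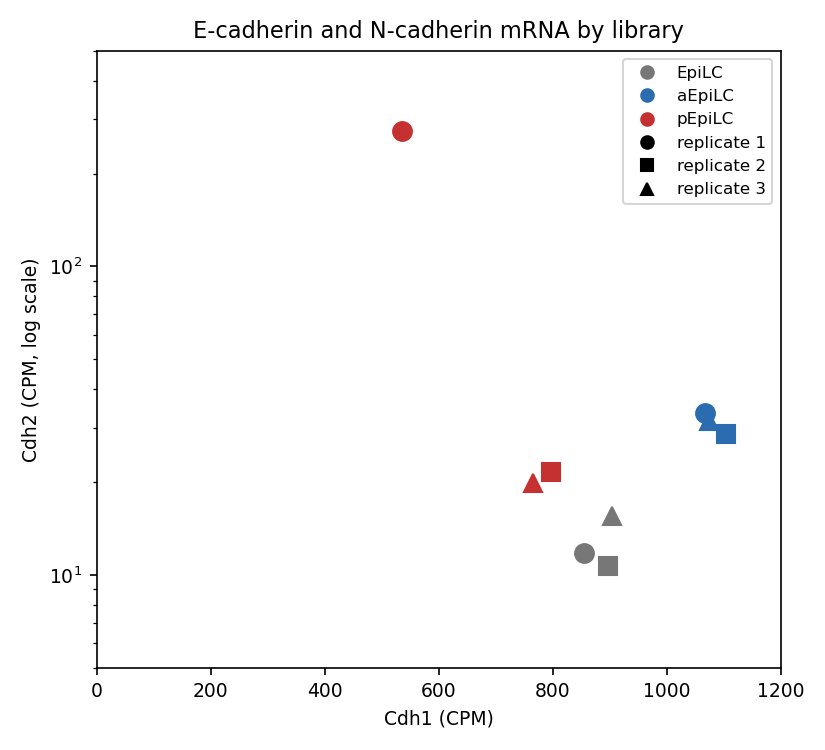
Cdh2 (CPM, log scale) against Cdh1 (CPM, linear scale) in each of the 9 libraries, coloured by state, the shape giving the replicate number. pEpiLC replicate 1, at 535 CPM of Cdh1 and 275 CPM of Cdh2, lies apart from the other 8 libraries, which hold 10.7 to 33.5 CPM of Cdh2.

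Divided by exon length, levels can be compared roughly between genes. The length used is the union of all annotated exons, which can exceed that of the transcripts expressed, and these were not determined. Among the 10 genes it was longest for Zeb2 (19942 bp) and Zeb1 (10266 bp). Before this division the EpiLC libraries of Zeb2 (0.472 to 1.01 CPM) and Zeb1 (0.755 to 1.59 CPM) overlapped. In EpiLCs the order of the mean level (CPM per kb) was Cdh1 (193), Epcam (119), Esrp1 (21.1), Vim (13.6), Cdh2 (1.57), Twist1 (0.777), Snai1 (0.695), Snai2 (0.211), Zeb1 (0.105) and Zeb2 (0.0396). The libraries of neighbours in this order overlapped for Twist1 and Snai1 and for Snai2 and Zeb1. In aEpiLCs Vim (25.6 CPM per kb) was above Esrp1 (20.8), and Zeb2 (0.543) above Snai2 (0.221) and Zeb1 (0.0758), in each case without overlap. Twist1 (1.59) and Snai1 (1.44) overlapped again. In pEpiLC replicates 2 and 3 Snai1 reached 9.20 and 8.43 CPM per kb, above Cdh2 at 2.66 and 2.46, while Vim and Esrp1 overlapped. In pEpiLC replicate 1 Vim (41.1 CPM per kb), Snai1 (39.8) and Cdh2 (34.1) were all above Esrp1 (17.1), and Cdh1 (117) and Epcam (66.3) were the highest.

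Genes that act with the members were described in 6 lists. Of all genes tested, 2.55% were called higher and 4.74% lower between pEpiLCs and aEpiLCs. Compared with EpiLCs it was 7.71% and 8.13% in pEpiLCs, and 7.25% and 5.24% in aEpiLCs. Of 20 upstream signals and gastrulation regulators tested between pEpiLCs and aEpiLCs, 5 were called higher (T, Fgf8, Eomes, Wnt3 and Nodal) and 2 lower (Fgf4 and Tgfb2), with a median log2 fold change of 0.10, or -0.10 without pEpiLC replicate 1. T (brachyury), the T-box factor of the primitive streak, was at 1089, 204 and 220 CPM in pEpiLCs and at 0.598 to 1.22 CPM in aEpiLCs (edgeR, log2 fold change 9.14, adjusted p = 0.00122, and 7.89 without pEpiLC replicate 1). Eomes, a T-box factor required for gastrulation EMT, was at 381, 239 and 216 CPM compared with 5.35, 4.55 and 4.69 CPM (log2 fold change 5.84, adjusted p = 3.70e-05). Fgf8, an FGF ligand needed for cells to leave the streak, was at 124, 109 and 110 CPM compared with 0.138 to 0.751 CPM (adjusted p = 1.58e-05). Without pEpiLC replicate 1 the counts were 5 and 2 again, and without aEpiLC replicate 2 the number lower was 1. Compared with EpiLCs, 8 of 21 genes were called higher in pEpiLCs, these 3 among them, and 1 lower, or 8 and 2 without pEpiLC replicate 1. From EpiLCs to aEpiLCs, 3 of 21 genes of this list were called higher and 4 lower, among them Nodal (57.0 to 70.6 CPM in EpiLCs, 15.9 to 26.9 CPM in aEpiLCs, log2 fold change -1.71, adjusted p = 1.98e-06), Fgf4 (-1.59) and Smad3 (1.26).

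Of 31 genes of epithelial junctions, polarity and keratins, 10 were called lower in pEpiLCs than in aEpiLCs and the other 21 were not called. The median log2 fold change was -0.88, where the median of all genes was 0.01 and 4.74% of them were called lower. The count was 9 without pEpiLC replicate 1, but 5, 3 and 5 without aEpiLC replicates 1, 2 and 3. The tight junction gene Cldn4 was at 22.2, 24.1 and 27.7 CPM in pEpiLCs and at 102, 92.2 and 84.7 CPM in aEpiLCs (edgeR, log2 fold change -1.91, adjusted p = 0.000119). Cldn3 (-2.12, adjusted p = 0.0404) and Marveld3 (-1.89, adjusted p = 0.0223), likewise of tight junctions, were lowest in pEpiLC replicate 1, at 1.34 and 1.91 CPM, and lost their calls when any aEpiLC library was left out, Cldn3 also without pEpiLC replicate 3 (adjusted p = 0.0887). The same list was higher in aEpiLCs than in EpiLCs for 8 genes, the other 23 not being called, with a median of 0.48. With no limit on fold change 23 of the 31 passed higher and 0 lower, where 24.0% and 22.6% of all genes did. The keratin gene Krt8 was at 18.7 to 24.5 CPM in EpiLCs and 91.1 to 106 CPM in aEpiLCs (log2 fold change 2.22, adjusted p = 3.01e-09), and the desmosomal cadherin Dsc2 (2.11) and Krt19 (1.63) were called too. Compared with EpiLCs, pEpiLCs had 5 genes higher and 3 lower, or 2 and 2 without pEpiLC replicate 1. The number lower was 6 without pEpiLC replicate 2 and 1 without EpiLC replicate 2 or 3. Dsp, the desmosomal plaque gene, was at 104, 40.3 and 39.6 CPM in pEpiLCs and 8.59 to 10.4 CPM in EpiLCs (2.69, adjusted p = 0.00168, and 2.07 without pEpiLC replicate 1), and Crb2, a polarity gene, was called higher (2.06). Tjp3 was called lower (-1.51), a call that was lost without any of the EpiLC libraries.

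Of 21 mesenchymal genes tested between pEpiLCs and aEpiLCs, 1 was called higher and 5 lower, where 2.55% and 4.74% of all genes were. The median log2 fold change of the list was -0.32. The cadherin gene Cdh11 was at 83.0, 12.4 and 10.1 CPM in pEpiLCs and 3.29, 2.07 and 2.44 CPM in aEpiLCs (edgeR, 3.76, adjusted p = 0.0264), and its log2 fold change was 2.12 without pEpiLC replicate 1. Acta2 and Tagln, which encode contractile and actin-binding proteins of smooth muscle, were lower in pEpiLCs (-2.33, adjusted p = 0.00313, and -1.48, adjusted p = 0.0465). The calls of Cdh11 and Tagln were lost without any of the aEpiLC libraries, that of Tagln also without pEpiLC replicate 2 (adjusted p = 0.0781). Without aEpiLC replicates 1, 2 and 3 the list had 0 genes called higher each time and 3, 3 and 2 called lower. Without pEpiLC replicates 1, 2 and 3 it had 2, 3 and 2 called higher and 5, 3 and 3 lower. The count called higher was 2 with DESeq2, with no filter and with the replicate block, and 3 with the likelihood ratio test, in the fit of all 9 libraries and with no limit on fold change, so that it ranged from 0 to 3 over the alternatives. From EpiLCs to aEpiLCs, 7 genes were called higher and 1 lower (median 0.69), where 7.25% and 5.24% of all genes were. Tagln was at 12.9, 11.0 and 10.8 CPM in EpiLCs and 74.4, 118 and 133 CPM in aEpiLCs (3.23, adjusted p = 1.72e-08), followed by Acta2 (2.56) and Cd44 (1.68). From EpiLCs to pEpiLCs 7 were called higher and 1 lower as well (2 lower without pEpiLC replicate 2 or EpiLC replicate 3), led by Cdh11 (6.22, or 4.58 without pEpiLC replicate 1), Pdgfra (5.61) and Cd44 (1.83). Pdgfra, which is also among the nascent mesoderm markers, was at 51.6 CPM in pEpiLC replicate 1 and 2.13 and 2.12 CPM in the others, with a log2 fold change of 2.48 without that library, and its call was lost without any of the EpiLC libraries.

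Another 11 transcription factor genes linked to EMT were tested between pEpiLCs and aEpiLCs. Of these, 1 was called higher and 1 lower, where 2.55% and 4.74% of all genes were. The number higher was 2 without pEpiLC replicate 3 and with the replicate block, and 0 without aEpiLC replicate 2. Gsc, a homeobox gene of the organizer and anterior streak, was at 83.8, 10.5 and 9.52 CPM in pEpiLCs and at or below 3 counts in every aEpiLC library, at least 246-fold higher on the mean, or at least 71.0-fold without pEpiLC replicate 1 (edgeR, adjusted p = 0.00772 with all libraries), a call lost without aEpiLC replicate 2 (adjusted p = 0.0517). Sox4 was lower (log2 fold change -1.11, adjusted p = 0.00151). Compared with EpiLCs, Ets1 was higher in pEpiLCs (1.79). Of 11 regulators of the epithelial state, 2 were called higher in pEpiLCs than in aEpiLCs, where 2.55% of all genes were. The other 9 were not called, and the median was -0.38, or -0.61 without pEpiLC replicate 1. Without any of the aEpiLC libraries 1 was called higher. Under 5 of 15 alternative settings 1 was called lower, among them DESeq2 and leaving out pEpiLC replicate 3. Those called higher with all libraries were Foxa2, a forkhead factor also known for endoderm and the anterior streak, at 62.9, 42.6 and 34.0 CPM in pEpiLCs and 0 to 0.188 CPM in aEpiLCs (adjusted p = 9.05e-05), and the RNA-binding protein gene Rbm47 (1.74, adjusted p = 0.0167), whose call was lost without any of the aEpiLC libraries. Compared with EpiLCs, 2 were called higher in pEpiLCs and 3 lower, or 2 and 1 without pEpiLC replicate 1, and Grhl1, a grainyhead factor of epithelia, was among the lower (-1.85). Of 11 partners of the cadherins at adherens junctions, 0 were called in either direction between pEpiLCs and aEpiLCs by edgeR, but 4 passed lower with no limit on fold change (Vcl, Afdn, Nectin1 and Ctnna2), with a median of -0.41, or -0.27 without pEpiLC replicate 1. At an unadjusted p below 0.05 it was 0 higher and 7 lower, where 14.0% of all genes were higher and 16.9% lower at that limit, and DESeq2 and limma voom also called 0, whereas 1 was called lower without aEpiLC replicate 2. Nectin1 and Ctnna2 were called higher in aEpiLCs than in EpiLCs, Nectin1 with a log2 fold change of 1.04 (adjusted p = 1.56e-06), but its call was lost without aEpiLC replicate 1 (0.99) or EpiLC replicate 2 (0.94).

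The limit on fold change bore on the other counts too, since many differences were smaller than it. With an adjusted p below 0.05 alone (edgeR), 1 of 31 junction, polarity and keratin genes passed higher and 14 lower between pEpiLCs and aEpiLCs. The mesenchymal genes went to 3 and 8 of 21, and the upstream signals and regulators to 5 and 3 of 20. The regulators of the epithelial state went to 2 and 1 of 11, while the other transcription factors stayed at 1 and 1 of 11. Of all genes, 6.28% passed higher and 9.30% lower. From EpiLCs to aEpiLCs, 9 of 21 upstream signals and regulators passed higher and 7 lower, as did 12 and 2 of 21 mesenchymal genes. The same held for 6 and 1 of 11 adherens junction partners and 4 and 2 of 9 other transcription factors. Of 10 regulators of the epithelial state it was 1 and 1. Of all genes, 24.0% passed higher and 22.6% lower. Between pEpiLCs and EpiLCs, 12 of 21 upstream signals and regulators passed higher and 2 lower. It was 7 and 9 of 31 junction, polarity and keratin genes and 11 and 4 of 21 mesenchymal genes. For lists with 11 tested genes it was 2 and 3 adherens junction partners, 5 and 2 other transcription factors, and 3 and 4 regulators of the epithelial state. Of all genes, 22.8% passed higher and 21.4% lower.

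**Figure D4:**
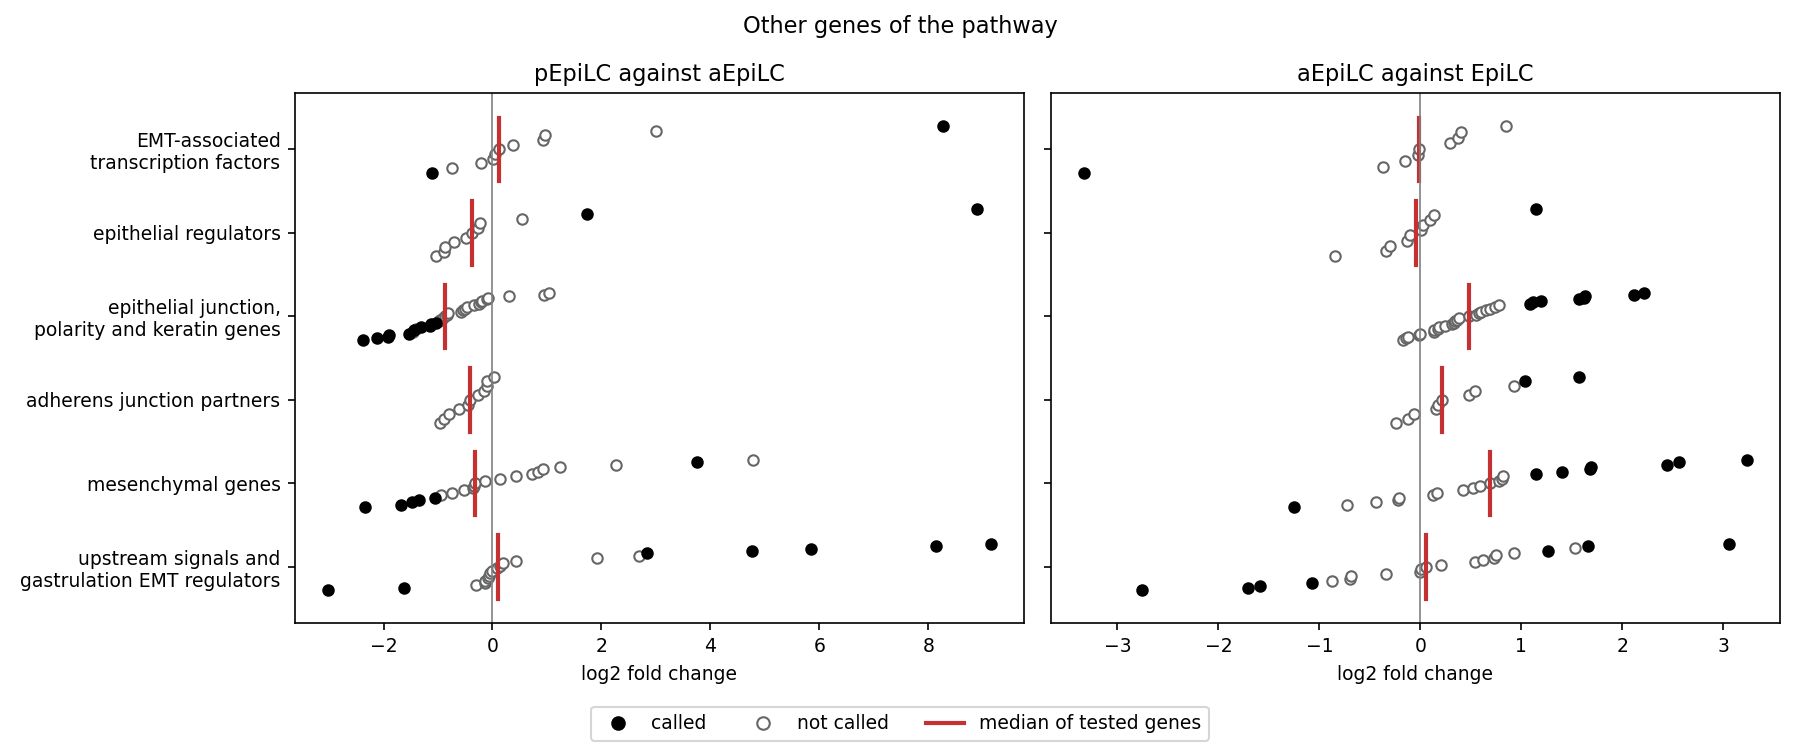
Log2 fold changes (x axis) of the genes of the 6 lists between pEpiLCs and aEpiLCs (left) and between aEpiLCs and EpiLCs (right), with a point per tested gene, filled where called, and a red line at the median of the list. The median of the junction, polarity and keratin genes is -0.88 on the left and 0.48 on the right.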

How the data were processed

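RNA-seq of 9 libraries was analysed, 3 each of EpiLC, aEpiLC and pEpiLC, grouped by their titles. The authors mapped paired-end reads to GRCm38 with STAR 2.7.9a and deposited expected counts per gene, estimated with RSEM 1.3.1 and not normalized. The annotation, read cleaning and strandedness are not given in the sources used here. Expected counts were rounded to whole numbers. Totals were 20560564 to 23417917 counts. Standard errors and p-values rest on the spread between the libraries of a state as well as on counting error.

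Each comparison was fitted to all genes of its 6 libraries in R 4.3.3 with edgeR 4.0.16, using TMM, filterByExpr and the quasi-likelihood test with Benjamini-Hochberg adjustment. The F statistic and the fold change gave the standard errors. CPM were TMM-normalized over the 9 libraries. Positions and exon lengths (union of exons) came from GENCODE vM21. Libraries with the same number deviated together between pEpiLC and aEpiLC (r = 0.215, 0.152 and 0.124 over genes), so the fit was also made with replicate number as a block. Pairs with different numbers had r of -0.179 to 0.0674 there, but aEpiLC replicate 2 and EpiLC replicate 3 reached 0.123. The deviations are from the mean of each state, so these values are not independent. Other alternatives were RLE size factors, DESeq2 1.42.0, edgeR's likelihood ratio test, limma 3.58.1 voom with quality weights, other filters, 1 fit of all libraries, no limit on fold change, and leaving out each library. The alternatives for the counts over lists were added after seeing the data. The tests were tested on simulated data.

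The members and the gene lists were chosen with earlier results of these data known. Genes of the lists were named by a rule: the 3 called genes with the largest absolute log2 fold change per list and comparison, and averaging 5 CPM or more in the libraries compared. Genes outside it (Wnt3, Nodal, Tgfb2, Ctnna2, Nectin1, Ctnnb1, Vcl, Afdn, Zeb2os, Foxd3, Lhx1 and Mesp1 in places) were named after their values were seen. A gene that the rule names is not reported here. For 3 members, the 3 genes with the highest correlation over the 9 libraries were named.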

Additional observations from a re-analysis of the deposited data

How the results depend on the processing

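No call of an EMT gene turned its direction under any alternative. Snai1 and Zeb2 compared with EpiLCs held everywhere for pEpiLCs, and Zeb2 for aEpiLCs. The count of genes called between pEpiLCs and aEpiLCs was 1, but 2 with no limit on fold change, and 0 to 1 when a library was left out. Between pEpiLCs and EpiLCs it was 4, but 2 with limma voom and 2 to 4 when a library was left out. Between aEpiLCs and EpiLCs it was 4, but 1 in the fit of all 9 libraries. The cadherin balance between pEpiLCs and aEpiLCs was 1.30, but -0.10 without pEpiLC replicate 1, and -0.10 to 2.02 when a library was left out.

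Directions of log2 fold changes that were not called reversed in 18 cases. With limma voom these were -0.029 for Snai2, -0.062 for Twist1, -0.33 for Cdh2 and -0.41 for Vim between pEpiLCs and aEpiLCs, and for Snai2 -0.015 between pEpiLCs and EpiLCs and -0.022 between aEpiLCs and EpiLCs. With the replicate block it was -0.095 for Vim between pEpiLCs and aEpiLCs. The others came from leaving out a library, as ranges over the libraries left out. Between pEpiLCs and aEpiLCs these were -0.30 to 1.01 for Snai2, -0.25 to 0.29 for Twist1, -0.59 to 2.25 for Cdh2 and -0.47 to 0.26 for Vim, the lowest always without pEpiLC replicate 1. Snai2 ranged from -0.23 to 1.08 between pEpiLCs and EpiLCs. Between aEpiLCs and EpiLCs the ranges were -0.23 to 0.32 for Snai2, -0.022 to 0.15 for Epcam and -0.072 to 0.019 for Esrp1. The cause of these changes was not tested. Of the other values of named genes, 939 kept their direction and side of the limits, 53 lost the call and 7 gained it.

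The replicate block changed no call of an EMT gene between pEpiLCs and aEpiLCs, but with it Esrp1 passed the limit on adjusted p alone (0.0488), as it did in the fit of all 9 libraries (0.0286) and with limma voom (0.0455). In the comparisons with EpiLCs the libraries shared only a number (r = -0.0744 to 0.0381 for same-numbered libraries). The block there removed the call of Cdh2 in pEpiLCs (log2 fold change 1.93, adjusted p = 0.118), and calls over all genes went from 1178 higher and 1243 lower to 1099 and 1200. Over all genes between pEpiLCs and aEpiLCs, 387 were called higher and 721 lower. This became 955 and 1414 with no limit on fold change, and 252 and 396, 180 and 334, and 201 and 382 without aEpiLC replicates 1, 2 and 3. With no limit on fold change it became 3481 and 3278 between pEpiLCs and EpiLCs (1178 and 1243), and 3676 and 3454 between aEpiLCs and EpiLCs (1109 and 802), the latter 771 and 488 with at least 10 counts in every library. Between pEpiLCs and EpiLCs that filter left 817 and 801. Where a filter removed a gene, or DESeq2 gave no adjusted p, there is no value.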

Other observations

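The genes whose levels followed those of single EMT genes most closely over the 9 libraries were looked up among 10727 genes with a mean of at least 5 CPM, by Pearson's r of log2 CPM with 1 added. The libraries share their states and pEpiLC replicate 1 is extreme in each pattern, so the values are a description, without a test. Snai1 was followed by Vangl1 (r = 0.994), a planar cell polarity gene, Man1c1 (0.992) and Lrig1 (0.991). Vangl1 was at 5.51 to 6.93 CPM in EpiLCs, 7.27 to 8.12 CPM in aEpiLCs, and 83.2, 27.2 and 23.3 CPM in pEpiLCs. Cdh1 was followed by Cacng7 (0.994), Enpp3 (0.993) and Tubb4a (0.993), a tubulin gene. Tubb4a was at 26.3 to 31.2 CPM in EpiLCs, 64.0 to 71.8 CPM in aEpiLCs, and 5.54, 23.5 and 23.2 CPM in pEpiLCs. Cdh2 was followed by Cited2 (0.988), a transcriptional co-regulator, Atp10a (0.983) and Agap3 (0.982). Cited2 was at 19.7 to 20.3 CPM in EpiLCs, 28.1 to 36.2 CPM in aEpiLCs, and 82.4, 24.0 and 25.2 CPM in pEpiLCs.

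Catenin beta 1 (Ctnnb1), the cytoplasmic partner of the cadherins and the effector of Wnt signalling, was at 645 to 674 CPM in EpiLCs, 954 to 969 CPM in aEpiLCs and 889 to 900 CPM in pEpiLCs. The 3 states did not overlap, but Ctnnb1 did not pass the limit on adjusted p between pEpiLCs and aEpiLCs (edgeR). Of all genes, 38.7% did not overlap between these states. It was 58.7% between pEpiLCs and EpiLCs and 56.3% between aEpiLCs and EpiLCs.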
